A study of Callithrix jacchus with 4 samples.

Results

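The nuclei described here were oligodendrocyte precursor cell (OPC) nuclei of the injured marmoset primary visual cortex (V1) that held GFAP transcripts. They were chosen by a measured value. An OPC nucleus of the injured cohort with 2000 or more UMIs (unique molecular identifiers, each the tag of 1 captured transcript) was called GFAP-positive when it held at least 1 GFAP UMI. Of 1136 injured OPC nuclei, 998 reached 2000 UMIs, and 442 of these were GFAP-positive and 556 were GFAP-negative. The whole series held 38147 nuclei. GFAP itself was therefore left out of every test, and its values are given as a description.

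The injured cohort was 3 adult marmosets (F1619, F1565 and F1711) sampled 7 days after an ischemic stroke was induced in V1 with the vasoconstrictor peptide endothelin-1. Each animal gave 1 library of nuclei from frozen V1 that included the lesion core and the penumbra, so the position of a nucleus relative to the lesion was not known. The control cohort was 3 uninjured adult marmosets whose V1 nuclei were pooled in 1 library. The cohorts also differed in nuclei preparation, sequencing and doublet removal, so injury and these steps cannot be told apart, and the control library entered no test.

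OPC are the cells that divide and mature into the myelin-forming oligodendrocytes of the adult brain. They carry the receptor PDGFRA and surround themselves with matrix molecules such as the proteoglycan brevican and the glycoprotein tenascin-R. GFAP is an intermediate filament of astrocytes that increases when astrocytes react to injury, and tenascin-C (TNC) is a matrix glycoprotein of scars and of immature glia. After injury, OPC have been described to give rise to Schwann cells and astrocytes beside oligodendrocytes.

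The 3 injured libraries held 7500 to 12527 nuclei and 35737777 to 48722394 UMIs, with a median of 3531 to 4504.5 UMIs per nucleus. The library of F1565 had the most nuclei and the shallowest OPC, at a median of 2912 UMIs per OPC nucleus against 4981 and 5628 in F1711 and F1619. Pairs of injured libraries shared 15, 18 and 27 cell barcodes.

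GFAP transcripts were found in OPC nuclei of all 3 injured animals. The share was 52.7% in F1619 (139 of 264 nuclei, exact 95% binomial interval 46.4 to 58.8%), 28.9% in F1565 (108 of 374, 24.3 to 33.8%) and 54.2% in F1711 (195 of 360, 48.9 to 59.4%). The mean was 45.2% ± 14.2 (SD, n = 3 animals), and F1565 lay below the other two. Astrocyte nuclei of the same depth limit gave 70.0%, 58.2% and 77.7% in these animals, again with the lowest value in F1565. The cell types that should lack GFAP gave a like low share. Microglia gave 1.65% ± 0.68, oligodendrocytes 2.31% ± 1.08, excitatory neurons 2.24% ± 0.73 and inhibitory neurons 2.34% ± 0.56 (SD, n = 3 animals each), and no cell type other than OPC and astrocytes exceeded 4.56% in any animal. The intervals cover counting error only. In the control library, 0 of 171 OPC nuclei of any depth held a GFAP UMI, at a median depth of 962 UMIs. This allows a share of up to 1.75% by the limit of 3 nuclei, with an exact 95% upper bound of 2.13%. At the depth limit used for the injured nuclei it was 0 of 11, which allows up to 27.3% (exact upper bound 28.5%), close to the share of F1565 and below those of F1619 and F1711, and the cohorts were not tested against each other. Control astrocytes with 2000 or more UMIs gave 16.8% (17 of 101).

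The share was also read at equal depth. When each nucleus was drawn at random down to 2000 UMIs, 38.6%, 19.5% and 39.7% of OPC nuclei of F1619, F1565 and F1711 still held a GFAP UMI, a mean of 32.6% ± 11.4 (SD, n = 3). The order of the animals stayed, with F1565 lowest at both depths.

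**Figure D1:**
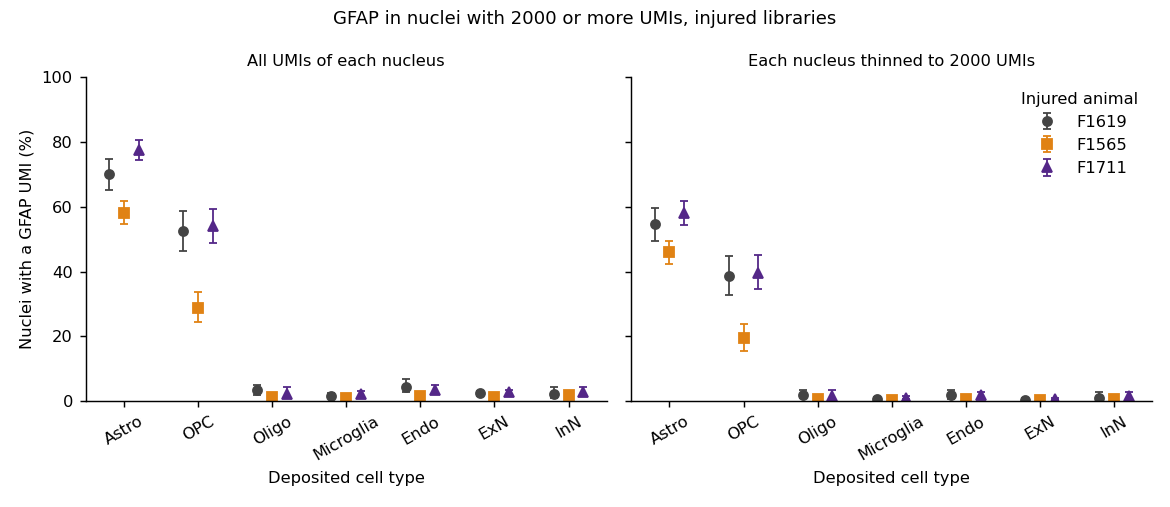
Share of nuclei with a GFAP UMI (%) by deposited cell type (Astro, astrocytes; Oligo, oligodendrocytes; Endo, endothelial nuclei; ExN and InN, excitatory and inhibitory neurons) among nuclei with 2000 or more UMIs, at full depth (left) and after thinning to 2000 UMIs (right). Points are the 3 injured animals and bars are exact 95% binomial intervals; OPC lie at 28.9 to 54.2% at full depth, below astrocytes and above the other types, which stay at 4.56% or lower.

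Among the 442 GFAP-positive nuclei the number of GFAP UMIs varied widely. The median was 4 in F1619, 2 in F1565 and 5 in F1711, and the highest nucleus held 36. Just inside the limit, 105 nuclei (23.8%) held exactly 1 GFAP UMI, and just outside it the 556 GFAP-negative nuclei held 0. At the upper end, 187 nuclei (42.3%) held 5 or more. Summed over nuclei, GFAP reached 831, 591 and 914 counts per 1000000 UMIs (CPM) in the GFAP-positive OPC of F1619, F1565 and F1711, beside 737, 744 and 710 CPM in the GFAP-positive astrocytes of the same animals. Both groups were chosen by holding a GFAP UMI, so these levels describe the choice and are not compared.

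The deposited cell type was described by its markers. The authors named OPC clusters from PDGFRA, PCDH15 and MEGF11. They named astrocyte clusters from SLC1A2, SLC1A3, ALDH1L1, AQP4, NDRG2 and GFAP. Differences between the cell types in these genes thus partly follow from the naming and are no independent check. GFAP-positive OPC nuclei held PDGFRA, the growth factor receptor of OPC, at 334, 387 and 401 CPM in F1619, F1565 and F1711, while GFAP-positive astrocytes held 9.82 CPM ± 3.32 (SD, n = 3). PDGFRA UMIs were present in 330 of the 442 nuclei. The protocadherin PCDH15 stood at 1826 CPM ± 140 against 57.1 CPM in GFAP-positive astrocytes. The transcription factor SOX10 of the oligodendrocyte lineage stood at 71.6 CPM ± 10.4 against 2.1 CPM. MEGF11, the third OPC marker of the study, separated the cell types less, at 306, 305 and 334 CPM in GFAP-positive OPC against 168, 277 and 182 CPM in GFAP-positive astrocytes. Of the markers of astrocytes, some were low and some were not. The water channel AQP4 gave 12.4, 5.7 and 20.8 CPM in GFAP-positive OPC against a mean of 516 in GFAP-positive astrocytes, the folate enzyme ALDH1L1 gave 8.3, 5.7 and 6.9 CPM against 531, and SOX9, a transcription factor of astrocytes, had 0 UMIs in all 3 animals against 7.69 CPM. The glutamate transporters SLC1A2 and SLC1A3 stood at 336 CPM ± 64.9 and 334 CPM ± 112 in GFAP-positive OPC against 3995 and 2824 CPM in GFAP-positive astrocytes, and 65.7% and 65.4% of the GFAP-positive OPC held a UMI of them. NDRG2, used as an astrocyte marker, stood at 91.1 CPM ± 36.9 against 319.7 CPM, with a UMI in 37.2% (SD, n = 3 animals). GFAP-negative OPC held these 3 genes as well, at 385, 214 and 83.7 CPM. A UMI of AQP4, ALDH1L1 or the gap junction gene GJA1 was found in 14.5% ± 6.83 of GFAP-positive OPC, 11.1% ± 2.83 of GFAP-negative OPC and 15.2% ± 5.89 of microglia, against 97.3% ± 2.28 of GFAP-positive astrocytes (SD, n = 3). Under these labels PDGFRA, PCDH15 and SOX10 differed more from GFAP-positive astrocytes than MEGF11 did. Each of these astrocyte markers lay below its level in GFAP-positive astrocytes. All GFAP-positive OPC nuclei lay in 1 of the 2 deposited OPC clusters (cluster 25), and the other (cluster 26) held 12 GFAP-negative nuclei.

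A rule of 1 UMI takes deeper nuclei more often, and the GFAP-positive nuclei were deeper than the GFAP-negative ones. The medians were 6878 against 4779 UMIs in F1619, 4382.5 against 2996.5 in F1565 and 6762 against 3963 in F1711. The comparison within OPC was therefore also fitted on a depth-matched set, in which a GFAP-positive nucleus was set beside a GFAP-negative nucleus of the same library within 10% of its UMIs (73, 88 and 88 nuclei per class in F1619, F1565 and F1711).

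To find what went with GFAP inside OPC, UMIs were summed per animal and class and compared with animal as a block. Of 9231 genes tested, 1244 (13.5%) were called, 625 higher (6.77%) and 619 lower (6.71%) in GFAP-positive nuclei. Called genes had an adjusted p below 0.01 in edgeR's quasi-likelihood test, differed by more than 0.25 on the natural-log scale, and were detected in 10% or more of nuclei in one of the classes. In the depth-matched set 439 of 7221 genes (6.08%) were called, 190 higher (2.63%) and 249 lower (3.45%), and 428 of these were among the 1244, each in the same direction. The block left 2 degrees of freedom per gene, so the p-values lean on the spread shared across genes, and without the block 399 genes were called.

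TNC, the matrix gene given as a second marker of these nuclei, stood at 486, 481 and 420 CPM in GFAP-positive OPC of F1619, F1565 and F1711 and at 101, 151 and 109 CPM in GFAP-negative OPC. Every GFAP-positive sum lay above every GFAP-negative sum. The log2 fold change was 1.95 (SE 0.14, adjusted p = 1.44e-15), and 1.42 in the depth-matched set. TNC was picked with its values in these libraries known, so it is no independent evidence. In GFAP-positive astrocytes TNC stood at 137 CPM ± 51.7 (SD, n = 3), lower than in GFAP-positive OPC of each animal, which is a description because cell types came from clusters of the same expression values.

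The 10 largest rises that had the same direction in all 3 animals included secreted, matrix and glial genes. HGF, the hepatocyte growth factor, gave 26.9, 34.3 and 30.9 CPM in GFAP-positive nuclei of F1619, F1565 and F1711 and 0, 4.4 and 2.8 CPM in GFAP-negative nuclei (log2 fold change 3.52, SE 0.48, adjusted p = 7.94e-08). It was too low to be tested in the depth-matched set, and DESeq2 gave it no adjusted p. MXRA5, a matrix-remodelling protein, rose from 17.4, 17.7 and 30.7 CPM to 146, 122 and 204 CPM (2.83, SE 0.21, adjusted p = 1.99e-15). HOPX, a homeodomain protein of astrocytes and neural stem cells, rose from 93.1, 37.6 and 67.1 CPM to 427, 191 and 491 CPM (2.48, SE 0.16, adjusted p = 3.17e-17). SERPINA3, a secreted protease inhibitor of reactive astrocytes, rose from 52.1, 33.2 and 41.9 CPM to 198, 155 and 347 CPM (2.43, SE 0.19, adjusted p = 6.91e-15). For each of these genes the classes did not overlap across animals. The genes were chosen for large rises of the same direction in all 3 animals, so this largely follows from the choice. The remaining 6 were NWD1 (2.94), LRRC17 (2.79), FAM181A (2.77), GPAM (2.54), a first enzyme of glycerolipid synthesis, AHNAK2 (2.499) and MTMR11 (2.44). LRRC17, FAM181A and AHNAK2 fell under the count filter of the depth-matched set, and the other 3 were called there.

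The 10 largest falls with the same direction in all 3 animals were led by GPR17 and BCAN. GPR17, a receptor that marks committed precursors, fell from 134, 216 and 117 CPM to 10.4, 7.6 and 7.7 CPM in F1619, F1565 and F1711 (log2 fold change -4.03, SE 0.25, adjusted p = 4.4e-18). BCAN, which encodes brevican, fell from 145, 185 and 215 CPM to 6.2, 30.5 and 20.1 CPM (-3.39, SE 0.23, adjusted p = 5.26e-17). DSCAML1, a cell adhesion protein, fell from 836, 1046 and 896 CPM to 103, 215 and 142 CPM (-2.64, SE 0.14, adjusted p = 4.02e-20), the smallest adjusted p of all genes tested. The other falls included TCERG1L (-3.32), VSTM2B (-3.04), FYB2 (-2.90), PGBD5 (-2.79), COL9A2 (-2.58), a collagen IX chain, and PODXL2 (-2.56). PGBD5 and PODXL2 fell under the count filter of the depth-matched set, and the other 8 of the 10 were called there.

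**Figure D2:**
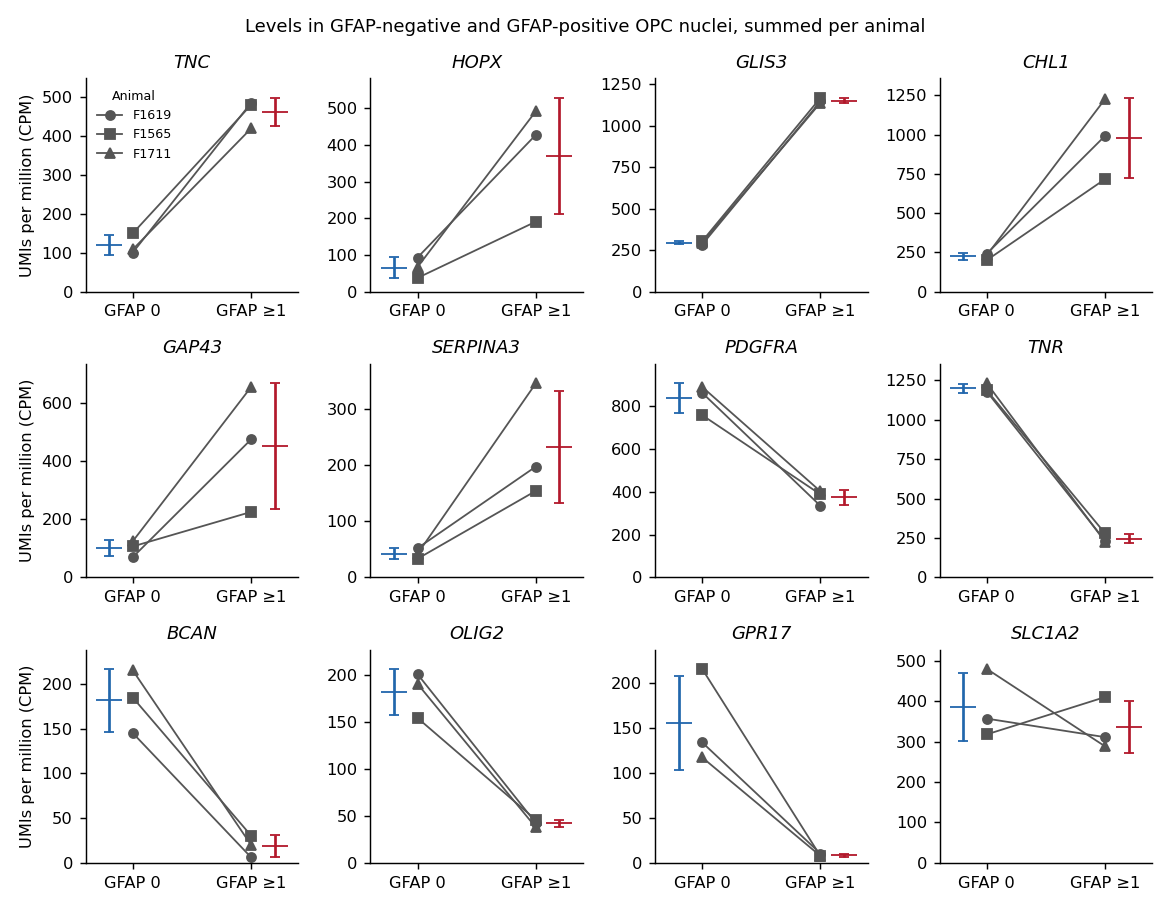
Levels of 12 genes (CPM) in GFAP-negative (GFAP 0) and GFAP-positive (GFAP ≥1) OPC nuclei, summed per animal; lines join the sums of 1 animal, and the coloured marks are the mean and SD over 3 animals. TNC, HOPX, GLIS3, CHL1, GAP43 and SERPINA3 lie higher and PDGFRA, TNR, BCAN, OLIG2 and GPR17 lower in every GFAP-positive sum, while the SLC1A2 lines cross.

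Other genes that rose in all 3 animals were named after their values were seen. GLIS3, a transcription factor that astrocytes also express, stood at 1146, 1167 and 1137 CPM in GFAP-positive OPC of F1619, F1565 and F1711 against 284, 305 and 296 CPM (log2 fold change 1.97, SE 0.12, adjusted p = 6.16e-18). CHL1, an adhesion protein of the L1 family, stood at 993, 717 and 1227 CPM against 243, 202 and 233 CPM (2.09, SE 0.13). SULF1, which removes sulfate groups from heparan sulfate, stood at 503, 484 and 889 CPM against 147, 132 and 136 CPM (2.14, SE 0.15). In GFAP-positive astrocytes SULF1 stood at 29.9 CPM and MXRA5 at 21.8 CPM, both below every sum of GFAP-positive OPC, while GLIS3 stood at 1886 CPM, above them. SAT1, an enzyme of polyamine breakdown, rose by 1.89 on the log2 scale (SE 0.13), and the transcription factor RUNX2 by 1.87 (SE 0.22). All 5 of them, GLIS3 (1.45), CHL1 (1.79), SULF1 (1.80), SAT1 (1.39) and RUNX2 (1.67), were called at matched depth.

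The genes of OPC identity were lower as a group. Of 20 listed genes 15 were tested, 11 were called lower and 0 higher, against 6.71% of all genes called lower, and the median log2 fold change was -0.90 beside 0.02 over all genes tested. TNR, which encodes tenascin-R, stood at 232, 278 and 225 CPM in GFAP-positive nuclei of F1619, F1565 and F1711 against 1179, 1187 and 1231 CPM in GFAP-negative nuclei (-2.30, SE 0.13, adjusted p = 1.1e-19). The adhesion gene DSCAM gave -2.26 (SE 0.13), the lineage factor OLIG2 -2.14 (SE 0.18), and XYLT1, which starts proteoglycan chains, -1.90 (SE 0.11). OLIG2 stood at 42.5, 45.8 and 37.8 CPM against 200, 154 and 190 CPM. PDGFRA fell less, from 862, 757 and 889 CPM to 334, 387 and 401 CPM (-1.16, SE 0.12, adjusted p = 1.3e-10), and PCDH15 by 0.69 (SE 0.11). The EGF-repeat receptor MEGF11 gave -1.46 (SE 0.12). PTPRZ1 (-0.25), SOX10 (-0.58, adjusted p = 0.0136), LUZP2 (0.13) and NXPH1 (0.23) were not called. The nuclei thus kept PDGFRA and PCDH15 at lower levels, and differed more in TNR, OLIG2 and DSCAM. At matched depth 9 of 15 were called lower and 1, NXPH1 (0.66), higher, against 3.45% and 2.63% of all genes there.

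Genes of committed precursors and myelin were also lower. Of 19 listed genes 12 were tested and 7 were called lower, 0 higher, against 6.71% of all genes called lower, with a median log2 fold change of -1.13 beside 0.02 over all genes. Beside GPR17, the early oligodendrocyte gene BCAS1 stood at 557, 568 and 490 CPM in F1619, F1565 and F1711 against 1816, 2688 and 1660.5 CPM (-1.89, SE 0.12, adjusted p = 6.51e-18). The deacetylase SIRT2 gave -1.91 (SE 0.18) and MBP, the gene of myelin basic protein, gave -1.92 (SE 0.20). The precursor enzyme ENPP6 (-0.97) and the Wnt effector TCF7L2 (-0.70) were called lower as well, ENPP6 not without F1565 (-0.55). At matched depth 8 of 11 were called lower, against 3.45% of all genes there.

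The astrocyte identity list did not move one way. Of 18 listed genes 11 were tested, 3 were called higher and 2 lower, against 6.77% and 6.71% of all genes, and the median was 0.21. S100B, a calcium-binding protein of glia, stood at 297, 183 and 188 CPM in F1619, F1565 and F1711 against 88.4, 66.4 and 103 CPM (1.35, SE 0.16, adjusted p = 4.26e-09). The bicarbonate transporter SLC4A4 gave 1.41 (SE 0.23) but was lower in F1565, at 26.7 against 34.3 CPM, and was not called at matched depth (0.94). The glutamate transporter SLC1A3 gave 0.61 (SE 0.14, adjusted p = 0.000855), a call lost in the depth-matched set (0.35) and without F1619 or without F1711. The glutamate transporter SLC1A2 was not called (-0.20, adjusted p = 0.379), with 311, 410 and 288 CPM against 357, 318 and 479 CPM, classes that overlapped, and was called lower without F1565 (-0.49). Among the genes called lower, the glycolytic enzyme ALDOC (-0.97, SE 0.27) lost its call in the depth-matched set and without F1619 or F1565. AQP4, ALDH1L1, GJA1, SOX9, FGFR3, GJB6 and ID4 were not tested. In GFAP-positive OPC the 17 listed genes in the table summed to 1165 to 1527 CPM, in GFAP-negative OPC to 1131 to 1452 CPM and in GFAP-positive astrocytes to 11027 to 13035 CPM.

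Genes of reactive astrocytes, apart from GFAP, were higher. Of 25 listed genes 14 were tested and 11 were called higher, 0 lower, against 6.77% of all genes called higher, and the median log2 fold change was 1.23. Beside SERPINA3, the membrane protein EMP1 stood at 182, 97.3 and 187 CPM in F1619, F1565 and F1711 against 30.0, 25.5 and 58.7 CPM (2.02, SE 0.20, adjusted p = 9.45e-12). The protease inhibitor TIMP1 gave 1.74 (SE 0.18), the pattern recognition protein PTX3 1.72 (SE 0.26) and CD109, a surface protein that binds TGF-beta, 1.61 (SE 0.15). CD44, the hyaluronan receptor, stood at 272, 317 and 420 CPM against 103, 151 and 115 CPM (1.46, SE 0.15, adjusted p = 4.7e-11). The oncostatin M receptor OSMR gave 1.23 (SE 0.21), and VIM, which encodes the intermediate filament vimentin, 0.85 (SE 0.15). VIM stood at 275 against 246 CPM in F1565, a smaller step than in the other animals. At matched depth 4 of the 14 were called higher (SERPINA3, CD109, EMP1 and CD44) and 1 lower (CRYAB, -1.73), against 2.63% and 3.45% of all genes. There TIMP1 gave 0.71, PTX3 0.92, OSMR 1.01 and VIM 0.20, none of them called, and VIM also lost its call without F1619. Several of these genes, with KLF6 and GAP43, are ones that the study itself follows in injured astrocytes of these libraries.

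**Figure D3:**
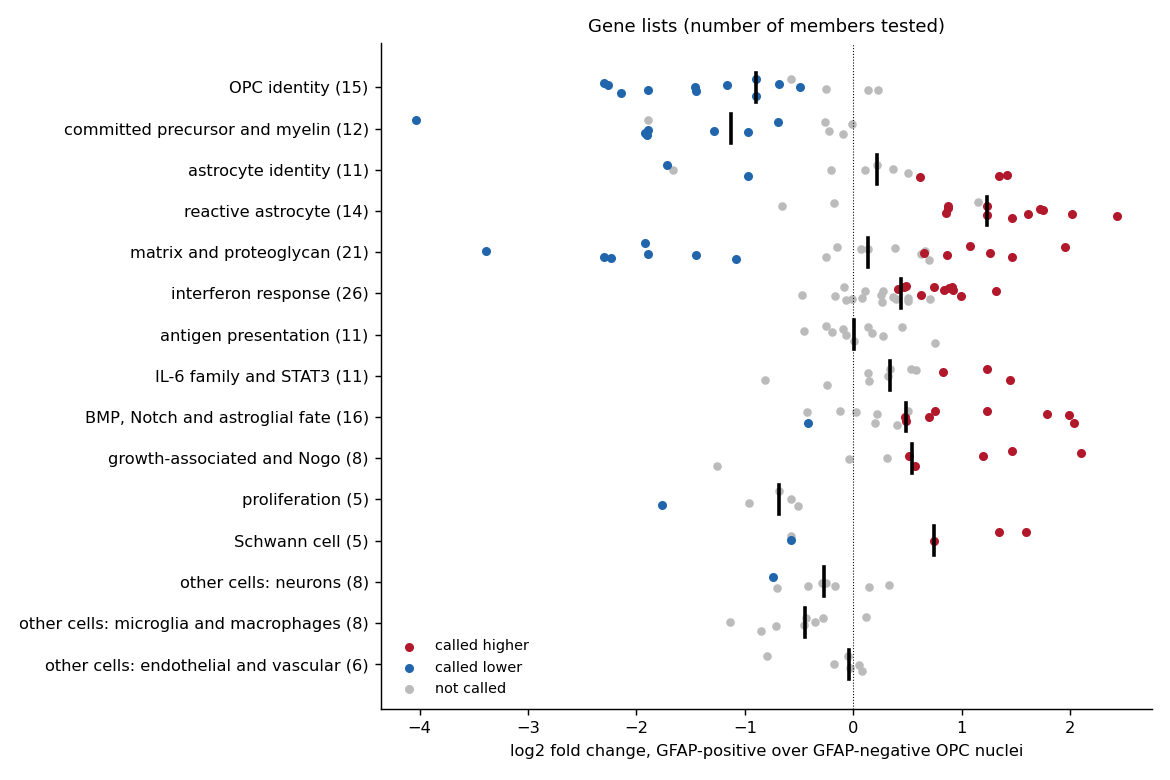
Log2 fold change between GFAP-positive and GFAP-negative OPC nuclei for the tested members of 15 gene lists (their number in brackets). Red and blue points were called higher and lower, grey points were not called, and the black bar is the list median; it lies at -0.90 for OPC identity, -1.13 for committed precursor and myelin genes and 1.23 for reactive astrocyte genes.

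Matrix genes split into genes that rose and genes that fell. Of 24 listed genes 21 were tested, 6 were called higher and 7 lower, against 6.77% and 6.71% of all genes. The genes that fell encode the proteoglycans and glycoprotein of the OPC surface, with BCAN and TNR above, aggrecan (ACAN, -2.23, SE 0.29), CSPG5 (-1.92, SE 0.15) and versican (VCAN, -1.45, SE 0.13), and the enzymes XYLT1 and CHST11 (-1.08, SE 0.11) that build and sulfate their chains. The genes that rose were TNC, CD44, the matrix protein SPARC (1.26, SE 0.20), the laminin chain LAMB1 (1.07, SE 0.21) and the integrin chains ITGB1 (0.87, SE 0.14) and ITGAV (0.65, SE 0.12). Of these, TNC, CD44 and SPARC were called at matched depth, and LAMB1 (0.74), ITGB1 (0.31) and ITGAV (0.47) were not. LAMB1 also lost its call without F1619 (0.80) and ITGAV without F1711 (0.49), and ACAN was too low to be tested at matched depth.

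Genes of the BMP and Notch pathways, which favour the astroglial over the oligodendroglial fate, were higher in part. Of 22 listed genes 16 were tested, 8 were called higher and 1 lower, against 6.77% and 6.71% of all genes. HES1, a repressor induced by Notch, stood at 79.8, 99.2 and 86.5 CPM in F1619, F1565 and F1711 against 15.8, 14.4 and 34.9 CPM (2.03, SE 0.25, adjusted p = 4.64e-09). ID3 and ID1, inhibitors of bHLH factors that BMP induces, gave 1.99 (SE 0.19) and 1.78 (SE 0.25), and ID2 gave 1.23 (SE 0.23). The receptors BMPR1A (0.48) and BMPR2 (0.48), their effector SMAD1 (0.70) and NOTCH2 (0.75) were called higher, with smaller values. NFIB, a factor of glial differentiation, was called lower (-0.42, SE 0.12), and NFIA (0.02) and SOX2 (0.40) were not called. At matched depth 4 of 14 were called higher (HES1, ID1, ID2 and ID3), against 2.63% of all genes, and the other 5 calls were lost. Leaving out F1619 ended the calls of ID2, BMPR1A, BMPR2 and NFIB, leaving out F1565 those of BMPR1A and NOTCH2, and leaving out F1711 those of BMPR1A, BMPR2, SMAD1, NOTCH2 and NFIB.

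Growth-associated genes included RTN4, the gene of NogoA that the study is about. The files count RTN4 as 1 gene without its transcripts. It stood at 395, 551 and 410 CPM in GFAP-positive OPC of F1619, F1565 and F1711 against 265, 415 and 282 CPM, higher in each animal (0.51, SE 0.13, adjusted p = 0.002). The highest GFAP-negative sum lay above the lowest GFAP-positive one, and the call was lost in the depth-matched set (0.42), without F1619 and without F1711. GAP43, a membrane protein of growing axons, stood at 474, 225 and 655 CPM against 69.4, 106 and 124 CPM (2.09, SE 0.17, adjusted p = 8.17e-14), with classes that did not overlap and the smallest step in F1565. The transcription factor KLF6 gave 1.19 (SE 0.17, adjusted p = 1.68e-07), and 0.71 without a call in the depth-matched set. Of 13 listed genes 8 were tested and 5 were called higher, 0 lower, against 6.77% of all genes called higher, the others being CD44 and KLF7 (0.57, SE 0.15). KLF7 was not called at matched depth (0.28), without F1619 (0.39) or without F1711 (0.61).

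Interferon genes were higher in part and their level followed the animal. Of 32 listed genes 26 were tested and 11 were called higher, 0 lower, against 6.77% of all genes called higher, with a median log2 fold change of 0.44. With any 1 animal left out 7 were called higher. Without F1565 these were 6 of the 11 and DDX58, and NLRC5, a regulator of antigen presentation, was called lower (-0.75). Of all genes tested, 374 of 9272 were called higher without F1619, 541 of 9372 without F1565 and 416 of 9196 without F1711. Without F1565, 608 of the 9372 were called lower. CXCL10, a chemokine induced by interferon, stood at 33.2, 351 and 40.1 CPM in F1619, F1565 and F1711 against 11.0, 156 and 12.6 CPM (1.32, SE 0.21, adjusted p = 1.35e-06). IFIT1 (0.92, SE 0.14), OAS2 (0.91, SE 0.14) and RSAD2 (0.99, SE 0.26) were called as well. The summed level of the 28 listed genes in the table was 7727, 19338 and 5783 CPM in GFAP-positive and 6214, 14908 and 4583 CPM in GFAP-negative nuclei, so F1565 was higher than the other animals in both classes. Calls at matched depth were those of OAS2 (0.77) and PARP14 (0.64), 2 of 25 genes, against 2.63% of all genes called higher. There IFIT1 (0.74) and RSAD2 (0.25) were not called, and CXCL10 (1.003, edgeR adjusted p = 0.0101) lay just past the limit. RSAD2 lost its call without F1565 and without F1711, PARP14 without F1619, and HERC6 without any 1 of the animals. Without the animal block edgeR called 0 of the 26, with 0 at an unadjusted p under 0.05, and DESeq2 with the block called 6. Over all 9231 genes, edgeR without the block called 399, with 2005 at an unadjusted p under 0.05. DESeq2 called 269 of them higher. Of the antigen presentation genes edgeR called 0 of 11, with 2 at an unadjusted p under 0.05, and DESeq2 called 0, with 1 left without an adjusted p. Of all 9231 genes edgeR called 6.77% higher and 6.71% lower, with 2742 at an unadjusted p under 0.05. With 11 genes, 0 calls lies near these shares. The median of the 11 was 0.01. Without F1565 edgeR called 2 of 10 lower, where 608 of all 9372 genes were called lower. These were B2M (-0.51), the light chain of class I molecules, and CD74 (-0.71), the invariant chain of class II. Of 11 tested genes of the IL-6 family and STAT3, JAK2 (0.83, SE 0.15), OSMR and BCL3 (1.44, SE 0.42) were called higher, against 6.77% of all genes. STAT3 was not (0.53, adjusted p = 0.0264). At matched depth edgeR called 0 of 9 genes of this list, with 2 at an unadjusted p under 0.05, where 2.63% of all genes were called higher. Over all 7221 genes there, 1436 were at an unadjusted p under 0.05. JAK2 lost its call without F1711 and BCL3 without F1619 or F1565, and BCL3 was under the count filter without F1711. DESeq2 called 2 of the 11 and gave 2, BCL3 among them, no adjusted p.

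Proliferation genes were mostly too low to test. Of 18 listed genes 5 were tested, and TOP2A, a topoisomerase of dividing cells, was called lower at 62.2, 9.5 and 23.9 CPM in F1619, F1565 and F1711 against 115, 35.4 and 157 CPM (-1.77, SE 0.24, adjusted p = 6.11e-08). TOP2A was the only call among the 5, where 6.71% of all genes were called lower. It was called at matched depth (-1.67) and without cluster 26 (-1.82), not called without the animal block (-1.57), and ranged from -2.53 without F1619 to -1.11 without F1711. The share of nuclei with a TOP2A UMI overlapped between the classes, at 18.7%, 4.63% and 10.3% of GFAP-positive against 15.2%, 6.02% and 12.7% of GFAP-negative nuclei. With the animals pooled, 51 (47.7%) of the 107 OPC nuclei with a TOP2A UMI were GFAP-positive, against 43.9% of the other 891. Within animals, the share with a TOP2A UMI was the higher one in F1619 (57.8% against 51.6%). It was the lower one in F1565 (23.8% against 29.2%) and F1711 (48.8% against 54.9%). The shares rise with depth, and the GFAP-positive nuclei were the deeper ones. MKI67 was not called (-0.97, adjusted p = 0.154). A list of Schwann cell genes was kept because injured OPC can enter that lineage. Against 6.77% and 6.71% of all genes called higher and lower, of 5 tested genes CDH19 (1.59, SE 0.25), S100B and PMP22 (0.74, SE 0.20) were called higher and NCAM1 (-0.58, SE 0.15) lower, while PRX, EGR2, NGFR and L1CAM were under the count filter. PMP22 lost its call without any 1 of the animals (0.68 to 0.77) and NCAM1 without F1711 (-0.53), at nearly the same fold changes, and neither was called at matched depth (0.56 and -0.60), where CDH19 was (1.501). With nuclei thinned to 2000 UMIs and classed on the thinned counts, CDH19 was not called (0.63). TOP2A kept its adjusted p there (-1.64, edgeR adjusted p = 0.000811) and failed only the limit of 10% of nuclei.

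No listed marker of microglia, vessels or neurons was called higher, where 6.77% of all genes were called higher and 6.71% lower. With so few genes tested, 0 calls lies near that share. Over all 9231 genes, 2742 were at an unadjusted p under 0.05 in edgeR. Of 8 tested genes of microglia and macrophages edgeR called 0 (4 at an unadjusted p under 0.05, median -0.45) and DESeq2 0, with 3 left without an adjusted p. Without F1565 edgeR called CD74 and GPR34 (-0.97) lower, where 608 of all 9372 genes were called lower. The microglia and macrophage list summed to 208 to 394 CPM in GFAP-positive and 369 to 516 CPM in GFAP-negative nuclei. Of 6 tested endothelial and vascular genes edgeR called 0 (1 at an unadjusted p under 0.05, median -0.04) and DESeq2 0, with 2 left without an adjusted p, and sums of 147 to 187 and 139 to 240 CPM. Of 8 tested neuronal genes GAD1 was called lower (-0.74, SE 0.14, and -0.58 without a call at matched depth), with sums of 767 to 905 and 819 to 995 CPM. When nuclei of both classes with a UMI of AQP4, ALDH1L1 or GJA1 were left out, 1078 genes were called, and 1056 of these were among the 1244.

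The amount of GFAP was then followed at equal depth. After thinning to 2000 UMIs, 680 OPC nuclei held 0, 145 held 1 and 173 held 2 or more GFAP UMIs, so the group with 0 took in GFAP-positive nuclei whose GFAP UMIs were not drawn. Shares are means over 3 animals with SD and carry no test. GLIS3 UMIs were found in 25.0% ± 0.24 of nuclei without GFAP, 73.8% ± 1.5 of those with 1 and 72.5% ± 9.39 of those with 2 or more, so its mean share was no higher beyond the first UMI. CHL1 went from 33.6% ± 7.43 to 64.4% ± 5.07 and 71.1% ± 10.2. TNC went from 16.5% ± 3.00 to 39.3% ± 19.1 and 50.7% ± 12.9, but from 1 to 2 or more it was lower in F1619 (61.2% to 43.4%) and higher in F1565 (29.3% to 65.6%) and F1711 (27.3% to 43.2%). CD44 went from 16.5% ± 3.32 to 38.2% ± 4.91 and 47.7% ± 7.18. In the other direction PDGFRA went from 66.5% ± 2.81 to 49.1% ± 2.14 and 35.4% ± 3.95, TNR from 65.9% ± 4.81 to 28.4% ± 9.25 and 15.1% ± 7.20, and BCAN from 27.5% ± 7.32 to 5.22% ± 4.09 and 1.52% ± 2.62, though in F1711 BCAN was at 1.82% with 1 and 4.55% with more. SLC1A2 gave 43.8% ± 5.6, 41.1% ± 4.55 and 42.6% ± 4.74. A PCDH15 UMI was found in more than 90% of nuclei of each group, so its level is given instead, 2887 CPM ± 224, 2086 CPM ± 121 and 1593 CPM ± 70.3.

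**Figure D4:**
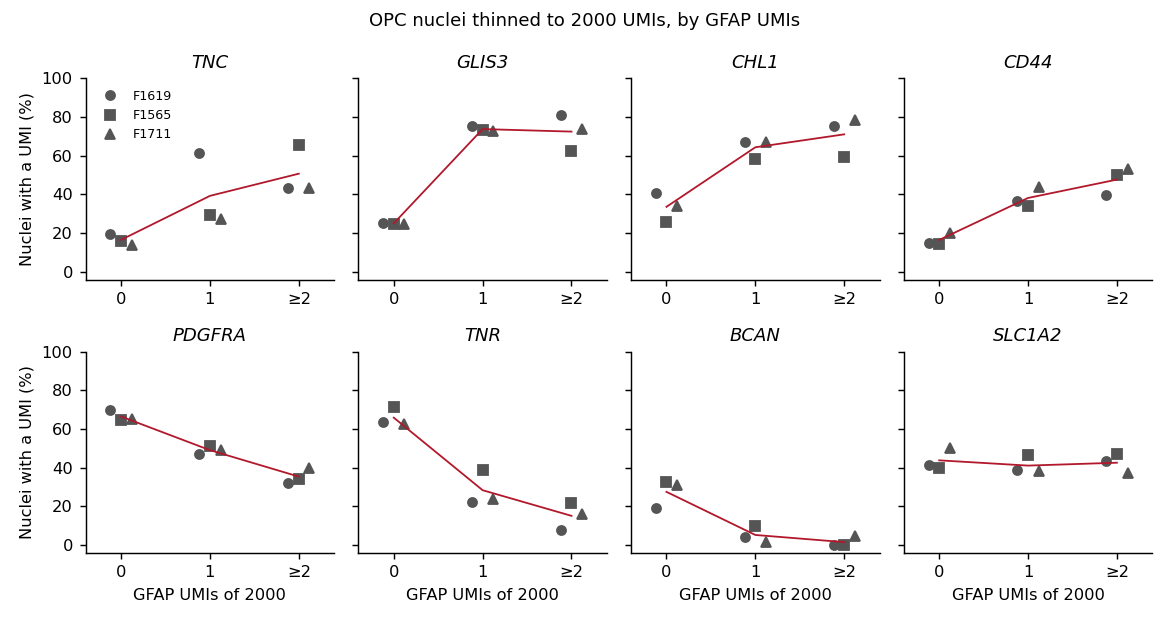
Share of OPC nuclei with a UMI of 8 genes (%) against the number of GFAP UMIs among 2000 UMIs per nucleus (0, 1, 2 or more); points are the 3 injured animals and the line joins their means. The mean share of GLIS3 goes from 25.0% to 73.8% and 72.5% and that of TNR from 65.9% to 28.4% and 15.1%, while SLC1A2 lies between 41.1% and 43.8%.

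Read from the other side, TNC and HOPX marked mostly GFAP-positive nuclei at full depth. Of 385 OPC nuclei with a TNC UMI 296 (76.9%) were GFAP-positive, against 23.8% of the 613 without one. Of 162 nuclei with a GPR17 UMI 16 (9.88%) were GFAP-positive, against 51.0% of the rest, and of 301 with a BCAN UMI 37 (12.3%). These shares pool the animals and rise with depth, since nuclei with a TNC UMI had a median of 6522 UMIs and those with a GPR17 UMI 4064.

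The same split was made in astrocytes, where GFAP is a gene of the lineage. Between 1249 GFAP-positive astrocytes and the GFAP-negative ones of the same animals, 122 of 10166 genes (1.20%) were called, 54 higher and 68 lower. This comparison was not repeated at matched depth. The test of the difference between the cell types asks whether a gene went with GFAP to another degree in OPC than in astrocytes. Of 10372 genes tested, 535 (5.16%) were called, 240 with a higher and 295 with a lower log2 fold change in OPC. This count depended on the animals, with 143 called without F1711 and 352 without F1619.

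TNC rose with GFAP in OPC and not in astrocytes, with log2 fold changes of 1.94 and -0.01 and a difference of 1.94 (SE 0.20, adjusted p = 9.53e-07). CD44 gave 1.45 in OPC and -0.96 in astrocytes, a difference of 2.39 (SE 0.27, adjusted p = 2.2e-06). GLIS3 gave 1.96 and 0.47 and CHL1 2.09 and 0.48, with differences of 1.47 (SE 0.18) and 1.59 (SE 0.20). GAP43 (difference 1.37, SE 0.27, adjusted p = 0.00123), KLF6 (1.05, SE 0.23, adjusted p = 0.0035), CXCL10 (1.6, SE 0.32, adjusted p = 0.0016) and HOPX (1.55, SE 0.24) were called in the same direction. For RTN4 the difference was 0.77 (SE 0.20) and was not called (adjusted p = 0.0135), and so for SERPINA3 (1.01, SE 0.30, adjusted p = 0.0322), VIM (0.80, SE 0.25, adjusted p = 0.0402) and OSMR (0.61, SE 0.30, adjusted p = 0.23). SLC1A2 (-0.39, SE 0.27) and SLC1A3 (0.10, SE 0.22) did not pass the test. Leaving out F1711 ended the calls of GAP43, KLF6, CXCL10 and HOPX, and leaving out F1619 that of KLF6, with differences of 0.75 to 1.40. Leaving out F1565 gave larger differences for GAP43 (1.80), KLF6 (1.19) and CXCL10 (2.50). After thinning to 2000 UMIs GAP43 (1.31), KLF6 (1.06) and CXCL10 (1.31) were not called and VIM was (1.09). Without F1565 the differences of RTN4 and VIM (1.18) were called, and that of SLC1A2 was called with a lower fold change in OPC.

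Genes named after their values were seen went in opposite directions in the cell types. RUNX1, a transcription factor, gave 1.16 in OPC and -2.51 in astrocytes (difference 3.66, SE 0.29, adjusted p = 1.85e-08), with CPM of 135, 107 and 117 in GFAP-positive against 45.8, 62.0 and 51.7 in GFAP-negative OPC of F1619, F1565 and F1711. The semaphorin receptor NRP1 gave 1.22 and -1.98 (difference 3.19, SE 0.25) and the ligand SEMA3C 1.67 and -1.71 (3.35, SE 0.31). SEMA5A, another guidance protein, gave -1.92 in OPC and 1.597 in astrocytes (-3.53, SE 0.28), and the calcium-binding gene S100A1 -2.00 and 1.64 (-3.66, SE 0.42). The astrocyte values of these 2 genes rest on few UMIs. GFAP-negative astrocytes of F1619, F1565 and F1711 held 7, 27 and 7 of SEMA5A and 5, 10 and 5 of S100A1. IDO1, which degrades tryptophan, gave 1.03 and -1.89 (2.92, SE 0.33), at 1034 CPM in GFAP-positive OPC of F1565 beside 117 and 6.2 CPM in F1619 and F1711. In the comparison of GFAP classes within OPC at matched depth, RUNX1 (0.69), NRP1 (0.73) and IDO1 (0.39) were not called. There S100A1 fell under the count filter, and SEMA3C (1.12) and SEMA5A (-1.43) were called. Of 15 OPC identity genes tested for the difference between cell types, 8 were called with a lower fold change in OPC, among them DSCAM (-2.31) and MEGF11 (-1.65, SE 0.18), and BCAN gave -3.35. The shares over all genes were 2.31% with a higher and 2.84% with a lower fold change in OPC. Reactive astrocyte genes gave 6 called higher of 16, with a median log2 fold change of 1.22 in OPC and 0.14 in astrocytes, and interferon genes 1 of 26, near the share over all genes, with medians of 0.43 and 0.22.

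**Figure D5:**
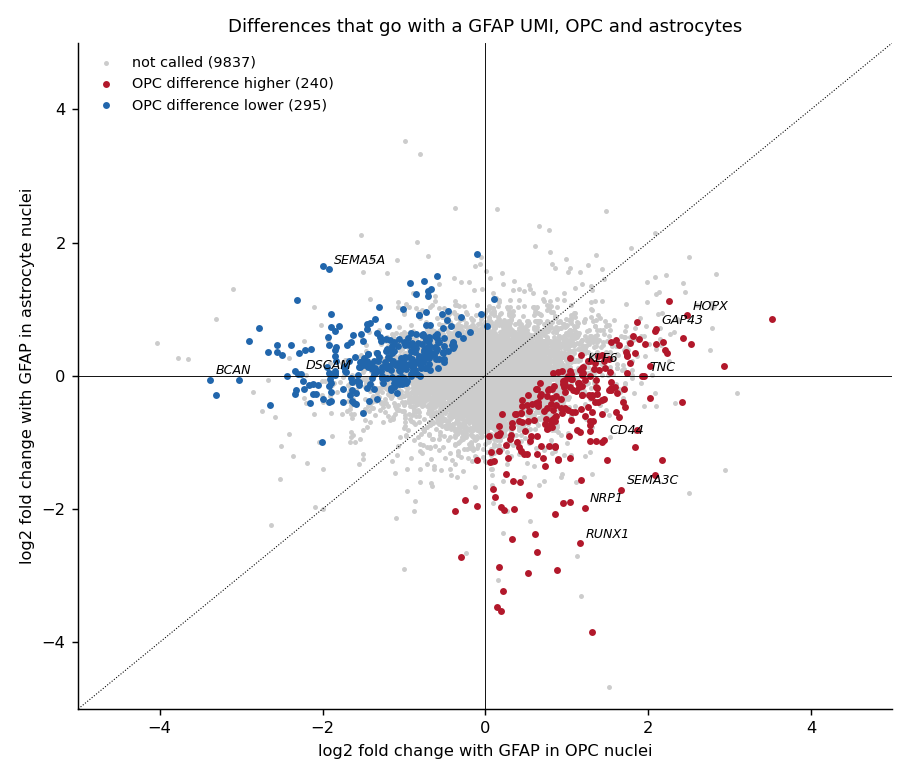
Log2 fold change between GFAP-positive and GFAP-negative nuclei in OPC (x axis) and in astrocytes (y axis) for the genes tested in both; 2 genes lie outside the axes. Red and blue points are the 240 genes with a higher and the 295 with a lower fold change in OPC by the test of the difference; TNC lies at 1.94 and -0.01 and RUNX1 at 1.16 and -2.51.

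In oligodendrocytes the same split left 37 GFAP-positive nuclei in 3 animals, and 0 of 7716 genes were called with edgeR (338 at an unadjusted p under 0.05). The test of the difference between OPC and oligodendrocytes called 92 of 9925 genes (0.927%), 77 with a higher and 15 with a lower fold change in OPC. The median difference over all genes was 0.46, and with library size alone as the scale the split was 24 higher and 53 lower. No gene is named from it for this reason.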

How the data were processed

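Nuclei of V1 from 3 injured marmosets (1 library each) and a pool of 3 uninjured marmosets were profiled in droplets. The authors counted UMIs per gene and nucleus with Cell Ranger 3.1.0 on the calJac3 genome, removed doublets from the injured libraries, assigned cell types to clusters, and deposited raw counts without normalization. From these counts, UMIs of OPC nuclei with 2000 or more UMIs were summed per injured library and GFAP class, without GFAP, and 6 sums were fitted by the quasi-likelihood test of edgeR 4.0.16 (R 4.3.3), with library as block, TMM scaling, filterByExpr by class and Benjamini-Hochberg adjustment. Both sums of a library come from the same animal. The fitted biological coefficient of variation was 0.102, with 2 residual and a median of 47.0 prior degrees of freedom. Interactions with astrocytes and oligodendrocytes used library by cell type as block. Levels (CPM) are UMIs per 1000000 UMIs of a summed class. The limits for a call are those of the study's methods. Steps were tested on simulated counts.

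The members and gene lists were chosen with earlier results of these data known. Genes named were GFAP and TNC, genes the study follows, list genes called (the largest first), cell type markers, and the 10 largest rises and falls among called genes with 1 direction in 3 animals. Others are said to be named after their values were seen. Some genes that this rule names are not reported here. Of 9819 table rows with an Ensembl identifier, 1173 were given a symbol from a table of gene names, and the others kept the identifier. Alternatives were DESeq2 1.42.0, other scaling, no count filter, other depth and GFAP limits, thinning, depth matching, leaving out nuclei with astrocyte markers, no block, an adjusted p limit of 0.05 and leaving out each animal. In depth matching, closest pairs came first, and GFAP-positive nuclei without a partner within 10% were left out. Leaving out cluster 26 was added after seeing the data. Shares were computed with Python 3.11.15 and scipy 1.17.1, with exact 95% intervals.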

Additional observations from a re-analysis of the deposited data

Results flagged for a closer look

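Between OPC and astrocytes, the difference that went with a GFAP UMI was itself tested, and 7 genes passed among TNC, genes that the study follows and its OPC markers. Over all genes, 535 of 10372 (5.16%) passed. Of the same genes, RTN4, SERPINA3, VIM, OSMR, SLC1A2, SLC1A3 and PDGFRA did not pass. ALDH1L1 and AQP4, not tested within OPC, were not among the genes that passed either. The log2 fold change was higher in OPC for TNC (difference 1.94), GAP43 (1.37), CD44 (2.39), KLF6 (1.05) and CXCL10 (1.6), in 3 of 3 animals each. It was lower in OPC for PCDH15 (-1.11) and MEGF11 (-1.65). A CXCL10 UMI was found in 10.6% of GFAP-positive and 12.8% of GFAP-negative OPC, animals pooled. Within each animal the order was the reverse. The shares were 5.76%, 25% and 6.15% of GFAP-positive OPC in F1619, F1565 and F1711, against 4.8%, 21.1% and 5.45% of GFAP-negative OPC. F1565, with the highest shares, gave 108 of the 442 GFAP-positive and 266 of the 556 GFAP-negative nuclei. These shares rise with depth, and the GFAP-positive nuclei were the deeper ones. GAP43, KLF6, CXCL10 and PCDH15 were not called without F1711 (1.24, 1.23, 1.40 and -1.21) nor after thinning (1.31, 1.06, 1.31 and -0.74). The same genes were not called with no replicate block (1.44, 1.03, 1.11 and -1.10). KLF6 was also lost without F1619 (0.75) and PCDH15 without F1565 (-0.73). GFAP-positive and GFAP-negative astrocytes also differ in depth, and the share of GFAP-negative astrocytes with a UMI of AQP4, ALDH1L1 or GJA1 was 84.3% ± 7.57 beside 97.3% ± 2.28 of the GFAP-positive ones (SD, n = 3). The part of these values in the differences was not tested.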

How the results depend on the processing

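The comparison within OPC called 1244 genes, and 583 with DESeq2 (which gave 39 of the 1244 no adjusted p), 701 after thinning to 2000 UMIs with the class of the whole nucleus, 535 with the class of the thinned nucleus, 439 at matched depth and 399 with no replicate block. Leaving out 1 animal gave 779 (F1619) to 1149 (F1565). The other alternatives gave 885 to 1701 calls. Matched and thinned sets held fewer nuclei or UMIs, and otherwise the cause was not tested. The test against astrocytes called 535 genes, and 947 at an adjusted p limit of 0.05, 263 after thinning and 88 with no replicate block. It called 143 (without F1711) to 554 (without F1565) when 1 animal was left out, and 352 without F1619. The test against oligodendrocytes called 92 genes, and 171, 37 and 1 under those settings, and 3 (without F1711) to 70 (without F1565), with 19 without F1619. SLC1A2, not called, changed sign at matched depth (0.17) and across left-out animals (-0.49 to 0.070), and the uncalled SLC1A3 difference against astrocytes did so (-0.071 to 0.19). The mean share of OPC nuclei with a GFAP UMI was 32.6 to 53.4% under the alternatives, and thinning lowered it in each animal. A nucleus near the depth limit of 2000 UMIs can lack a UMI of a gene it expresses, so GFAP-negative means that none was captured.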
